A study of Mus musculus with 15 samples.

Results

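The transcripts of 10 transcription factors of the primitive streak and early mesoderm were followed in mouse embryonic stem cells (mESCs) that lacked, or were depleted of, the cohesin subunits STAG1 and STAG2. The 10 genes, *T* (Brachyury), *Eomes*, *Mixl1*, *Gsc*, *Evx1*, *Tbx6*, *Mesp1*, *Cdx1*, *Cdx2* and *Cdx4*, were taken by symbol from the 23412 genes counted, and all 10 were found. PolyA RNA-seq had been made from 15 libraries, 3 in each of 5 conditions, and the authors deposited the raw number of reads counted on each gene. All cells were male v6.5 mESCs grown on gelatin, and all had been transfected with an siRNA at 50 nM and collected 48 h later. Wild-type cells, 1 *Stag1*-/- clone and 1 *Stag2*-/- clone received the non-targeting siGLO, and wild-type and *Stag2*-/- cells received siStag1. Each knockout was thus a single CRISPR clone, so that an effect of the genotype and a property of the clone cannot be told apart. The study calls the replicates of wild-type and knockout cells biological, and with 1 clone per knockout the p-values measure the spread between libraries of that clone, not between clones.

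The primitive streak is the site of the gastrulating embryo where epiblast cells leave the epithelium to form mesoderm and definitive endoderm. NODAL, WNT and BMP signals induce the streak, and T-box and homeobox factors act downstream of them. *T* and *Eomes* are T-box factors, with *T* needed for posterior mesoderm and the notochord and *Eomes* for definitive endoderm, cardiac mesoderm and, in the blastocyst, trophoblast. *Mixl1* and *Gsc* are homeobox genes of the streak and its anterior end, *Evx1* marks its posterior part, *Tbx6* specifies paraxial mesoderm, and *Mesp1* marks the first cardiac mesoderm. The caudal homeobox genes *Cdx1*, *Cdx2* and *Cdx4* pattern the posterior axis through Hox genes, and *Cdx2* is also required for trophectoderm. Undifferentiated mESCs express these genes at low levels, and a culture can hold a few cells that have begun to differentiate.

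The sequences around the transcription starts of *T* and *Eomes* are shown because these were the members that changed in both *Stag2*-/- conditions, in opposite directions. RefSeq windows of 300 bases (GRCm38.p6, 250 before the start and 50 after it) were matched by symbol for 8 of the 10 genes. Both windows lie on the plus strand, at chr17:8434173-8434472 for *T* and chr9:118477939-118478238 for *Eomes*. Capitals mark matches to the CDX motif TTTATNG (N is any base, both strands searched), and the other 2 motifs searched, the TCF/LEF motif CTTTGAT and the T-box half-site TCACACC, do not overlap it in these windows.
T: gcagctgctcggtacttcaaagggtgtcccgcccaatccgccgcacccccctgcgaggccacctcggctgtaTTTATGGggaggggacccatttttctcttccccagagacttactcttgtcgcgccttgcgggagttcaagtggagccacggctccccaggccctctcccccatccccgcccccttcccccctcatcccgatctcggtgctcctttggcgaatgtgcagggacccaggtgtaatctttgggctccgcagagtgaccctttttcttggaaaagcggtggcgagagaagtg
Eomes: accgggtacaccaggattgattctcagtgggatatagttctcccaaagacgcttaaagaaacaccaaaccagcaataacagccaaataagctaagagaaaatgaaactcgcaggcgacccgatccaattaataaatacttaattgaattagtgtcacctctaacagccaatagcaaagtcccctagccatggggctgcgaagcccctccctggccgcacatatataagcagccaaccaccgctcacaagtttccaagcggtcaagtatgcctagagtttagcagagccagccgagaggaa
The *T* window holds 1 CDX match, 178 bases before the start, and the *Eomes* window holds a match to none of the 3 motifs. A CDX match was found for 3 of the 8 members (*T*, *Evx1* and *Tbx6*), against 10.9% of all 32851 windows of this length. A TCF/LEF match and a T-box match were each found for 1 member, *Mesp1*, against 3.73% and 3.98% of all windows. These matches are letters in a window, and no binding was measured here.

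Between 14982560 and 19070126 reads were counted on genes per library (median 17700059), so that 3 counts, taken as the lowest level that can be seen, stand for 0.157 to 0.200 CPM (counts scaled to library size). This floor covers counting error only. Normalized *Stag2* counts were 692 ± 40.9 (SD, n = 3) in *Stag2*-/- siGLO and 907 ± 49.4 in *Stag2*-/- siStag1, against 2331 ± 3.21 in wild-type siGLO. For *Stag1*, wild-type siStag1 had 442 ± 83.1 normalized counts and *Stag2*-/- siStag1 had 693 ± 79.2, against 2146 ± 138 in wild-type siGLO. The *Stag1*-/- clone, which carries an in-frame deletion in an exon, had 2023 ± 300 normalized *Stag1* counts, so that the counts do not check this genotype. The stem cell markers were present in every library, with 20080 ± 1306 normalized counts of *Pou5f1* in wild-type siGLO and 16150 ± 3174 in *Stag2*-/- siStag1. *Nanog* was at 5181 ± 366 and 1704 ± 970 in the same conditions. Replicate 2 of *Stag2*-/- siGLO stood apart for several of the genes described, and the results that it moved most are given with and without it.

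All 10 factors were low in wild-type siGLO mESCs, and their order was compared per exon length (RPKM, here counts scaled to TMM library size and to kilobases of exon, GENCODE M21 lengths). *Eomes* was highest, at 3.41 ± 0.767 RPKM (SD, n = 3), followed by *Cdx1* at 1.98 ± 0.104 and *Tbx6* at 0.917 ± 0.167. The replicates of these 3 genes did not overlap each other or those of the gene next in order. The other members, *Gsc*, *Mixl1*, *Cdx2*, *T*, *Mesp1*, *Cdx4* and *Evx1*, ran from 0.367 down to 0.0124 RPKM, and each of these overlapped its neighbour in the order. The order of mean levels in *Stag2*-/- siGLO was led by *Cdx1* (3.83 ± 2.95 RPKM) and *T* (3.18 ± 3.06), but every gene overlapped its neighbour there. *Eomes* came first again in *Stag2*-/- siStag1, at 1.25 ± 0.140 RPKM, with *T* next, at 0.925 ± 0.333, and their ranges overlapped.

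Expression was high enough to test 8 of the 10 genes. *Evx1* and *Mesp1* did not pass the filter (edgeR's filterByExpr, minimum count 10), and they were tested only in the fit without a filter and by DESeq2, as alternatives. Raw *Evx1* counts ranged from 0 to 18 and were at or under 3 in 12 of 15 libraries. Raw *Mesp1* counts ranged from 0 to 7 and were at or under 3 in 11 of 15 libraries. The low counts also limit the tested genes, since *Gsc* had 1 to 31 counts, *Cdx4* 0 to 20 and *Cdx2* 2 to 61. Differences between conditions were tested with edgeR's two-sided quasi-likelihood test over all 14508 genes that passed the filter, and calls were made at an adjusted p (Benjamini-Hochberg) of less than 0.1. Changes are given below as log2 fold changes with their SE.

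**Figure D1:**
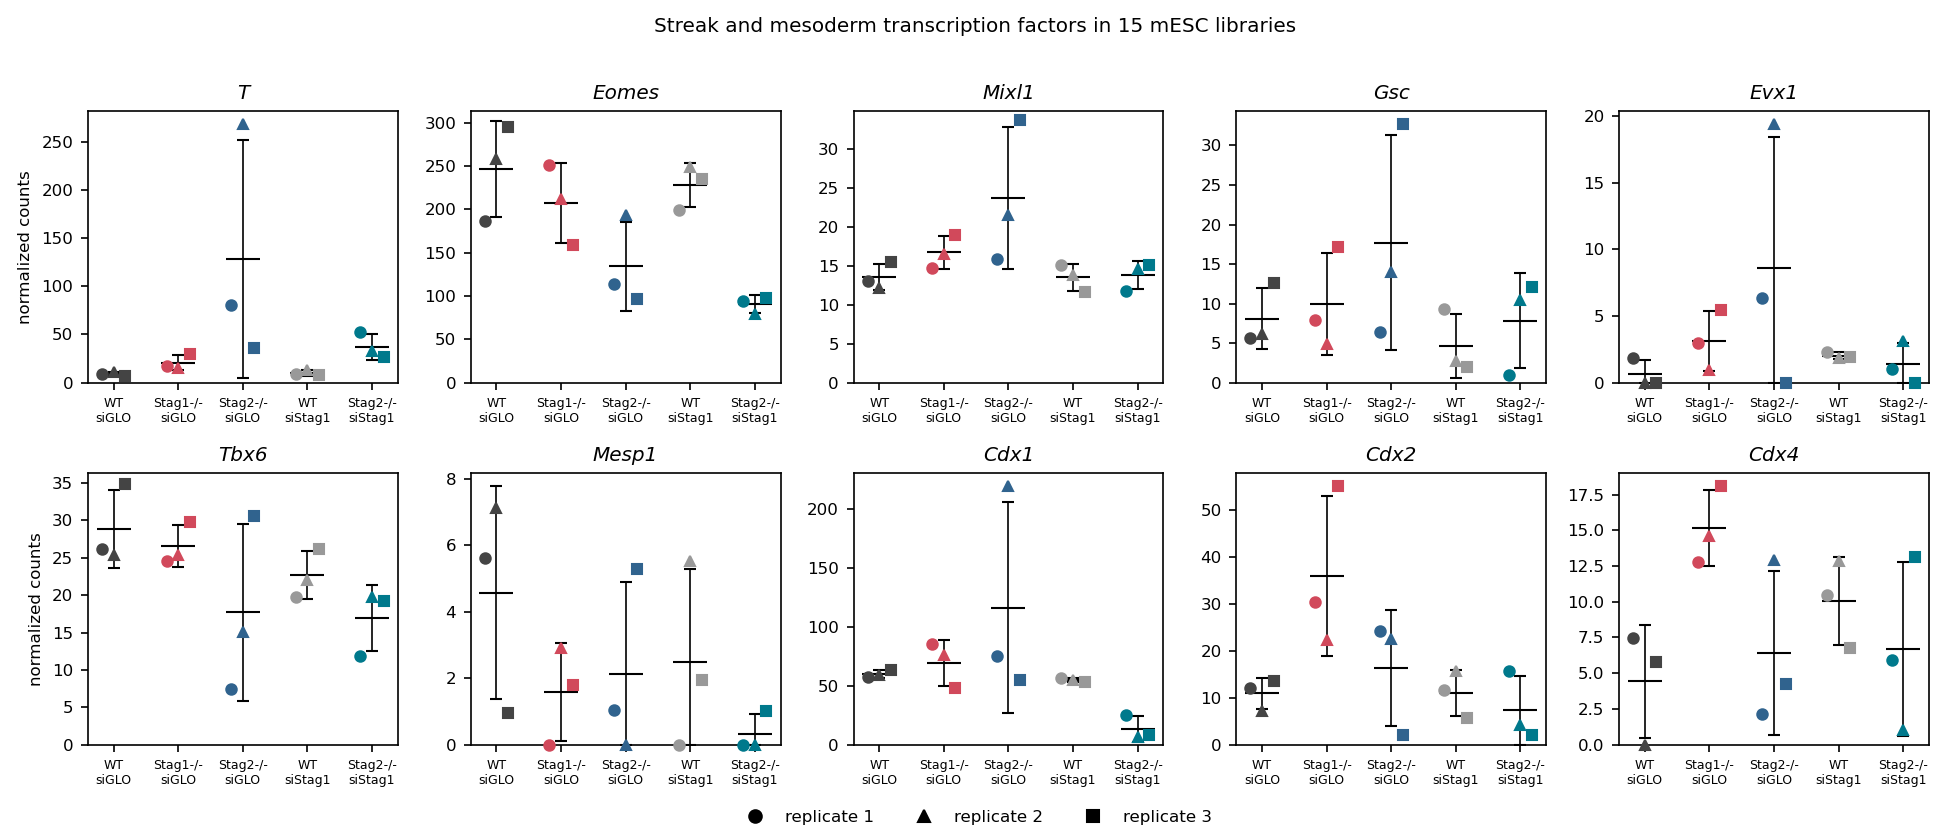
Normalized counts (y axis, scaled to a common depth, 1 panel per gene with its own scale) of the 10 factors in the 15 libraries by condition (x axis). Points are libraries, with the shape giving the replicate number, and the line and bars are the mean and SD of 3 libraries, with bars cut off at 0. *T* rises to 268 in replicate 2 of *Stag2*-/- siGLO, *Eomes* lies below 100 in all 3 *Stag2*-/- siStag1 libraries, and *Cdx1* lies lowest in that condition.

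*T*, the mesoderm and notochord factor, rose in both *Stag2*-/- conditions. Its normalized counts in replicates 1, 2 and 3 were 9.35, 11.2 and 6.78 in wild-type siGLO and 80.4, 268 and 35.9 in *Stag2*-/- siGLO. All 3 knockout libraries lay above all 3 wild-type libraries, but they differed widely among themselves. The change was 3.80 (SE 0.62, adjusted p = 0.000521), and 2.66 without replicate 2 of *Stag2*-/- siGLO (adjusted p = 0.00157). The *Stag2*-/- siStag1 libraries had 52.2, 33.3 and 26.3 normalized counts, again all above wild-type siGLO. The change there was 2.02 (SE 0.64, adjusted p = 0.0210). Wild-type siStag1 had 9.32, 12.9 and 7.74, which overlapped the control, and the change of 0.14 (SE 0.73) was not called (adjusted p = 0.999).

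Against wild-type siStag1, a control of its own that shares no library with wild-type siGLO, *Stag2*-/- siStag1 had higher *T* by 1.88 (SE 0.63, adjusted p = 0.0338). This call was lost without replicate 3 of wild-type siStag1 (1.72, adjusted p = 0.110) or without replicate 1 of *Stag2*-/- siStag1 (1.56, adjusted p = 0.108). The *Stag1*-/- siGLO libraries had 16.7, 15.6 and 29.8 normalized *T* counts, all above wild-type siGLO, with a change of 1.19 (SE 0.67) that was not called (adjusted p = 0.270), but was in a fit of these 6 libraries alone (adjusted p = 0.0757). *T* was higher in *Stag2*-/- than in *Stag1*-/- siGLO cells by 2.62 (SE 0.55, adjusted p = 0.00396), and by 1.48 without replicate 2 of *Stag2*-/- siGLO (adjusted p = 0.0318). Adding siStag1 to *Stag2*-/- cells gave lower *T*, with a change of −1.78 (SE 0.53, adjusted p = 0.0723), although the libraries of the 2 conditions overlapped. Without replicate 2 of *Stag2*-/- siGLO this difference was −0.64 and was no longer called (adjusted p = 0.489), and it was also lost without replicate 2 (−1.70, adjusted p = 0.212) or replicate 3 (−1.58, adjusted p = 0.266) of *Stag2*-/- siStag1.

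*Eomes*, the endoderm, cardiac mesoderm and trophoblast factor, fell in both *Stag2*-/- conditions. In wild-type siGLO its normalized counts were 186, 258 and 295, and in *Stag2*-/- siGLO they were 114, 193 and 96.1. Replicate 2 of *Stag2*-/- siGLO lay within the wild-type range, and the other 2 lay below it. The change was −0.87 (SE 0.24, adjusted p = 0.0180). *Stag2*-/- siStag1 had 94.6, 79.1 and 98.1, all below every wild-type library, and a change of −1.44 (SE 0.25, adjusted p = 0.000308). Against wild-type siStag1 (199, 249 and 235) the change was −1.33 (SE 0.25, adjusted p = 0.000876), without overlap. The further change of −0.57 (SE 0.25) when siStag1 was added to *Stag2*-/- cells was not called (adjusted p = 0.266).

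In *Stag1*-/- siGLO, *Eomes* had 251, 212 and 159 normalized counts, which overlapped wild-type, and the change of −0.25 (SE 0.24) was not called (adjusted p = 0.541). *Eomes* was lower in *Stag2*-/- than in *Stag1*-/- siGLO cells by −0.63 (SE 0.24, adjusted p = 0.0849). This call was lost without replicate 1 (adjusted p = 0.263) or 2 (adjusted p = 0.179) of *Stag1*-/- siGLO and without replicate 1 (adjusted p = 0.207) or 3 (adjusted p = 0.265) of *Stag2*-/- siGLO. In mm10 the gene lies at 118478212 to 118486132 on chromosome 9, plus strand, where GENCODE M21 also places an antisense transcript. Whether strand was used in counting is not given in the sources used here, so that reads from the 2 strands cannot be told apart.

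*Mixl1*, a homeobox gene of the streak, and *Gsc*, a homeobox gene of its anterior end and the organizer, were not called in any comparison. Normalized *Mixl1* counts were 13.1, 12.2 and 15.5 in wild-type siGLO and 15.9, 21.6 and 33.8 in *Stag2*-/- siGLO, with every knockout library above the wild-type ones. The change of 0.80 (SE 0.33) had an adjusted p = 0.103, and with the replicate number as a block it was called at 0.78 (adjusted p = 0.0865). *Mixl1* in *Stag2*-/- siStag1 was at 11.8, 14.6 and 15.2, a change of 0.025 (SE 0.35, adjusted p = 0.964) from wild-type siGLO. *Gsc* had 5.61, 6.10 and 12.6 normalized counts in wild-type siGLO and 6.35, 14.0 and 32.7 in *Stag2*-/- siGLO. The ranges overlapped, and the change of 1.12 (SE 0.71) was not called (adjusted p = 0.288).

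For the paraxial mesoderm factor *Tbx6*, normalized counts were 26.2, 25.4 and 34.8 in wild-type siGLO and 7.41, 15.1 and 30.6 in *Stag2*-/- siGLO. Replicate 3 of the knockout lay within the wild-type range and the other 2 below it. The change of −0.70 (SE 0.39) was not called (adjusted p = 0.225), and with the replicate block it was called at −0.76 (adjusted p = 0.0982). It was also called without replicate 3 of *Stag2*-/- siGLO (−1.35, adjusted p = 0.0330). The 3 libraries of *Stag2*-/- siStag1 had 11.8, 19.8 and 19.2, all below wild-type siGLO, with a change of −0.77 (SE 0.39) that was not called (adjusted p = 0.141). Raw counts of the cardiac mesoderm factor *Mesp1* were 6, 7 and 1 in wild-type siGLO and 0, 0 and 1 in *Stag2*-/- siStag1. Raw counts of *Evx1* were 2, 0 and 0 in wild-type siGLO and 6, 18 and 0 in *Stag2*-/- siGLO, with most of the reads in replicate 2. In a fit without a filter *Mesp1* was called lower in *Stag2*-/- siStag1 (adjusted p = 0.0875) and *Evx1* higher in *Stag2*-/- siGLO (adjusted p = 0.0587). DESeq2 also called *Evx1* there (3.75, adjusted p = 0.0736) and did not call *Mesp1* (adjusted p = 0.103), but in both cases the groups overlapped and most libraries were at or under 3 counts. GENCODE M21 places an antisense transcript over *Evx1* as over *Eomes*, with the same limit.

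*Cdx1*, a posterior patterning factor and a WNT target, was lowest in *Stag2*-/- cells that had received siStag1. Its normalized counts were 58.0, 59.0 and 63.9 in wild-type siGLO and 25.6, 6.24 and 8.09 in *Stag2*-/- siStag1, with no overlap. The change was −2.16 (SE 0.53, adjusted p = 0.00455), and −3.05 without replicate 1 of *Stag2*-/- siStag1 (adjusted p = 0.000946). Wild-type siStag1 had 57.1, 55.2 and 53.2, all just below wild-type siGLO, with a change of −0.13 (SE 0.45, adjusted p = 0.999). Against this control *Stag2*-/- siStag1 was lower by −2.03 (SE 0.53, adjusted p = 0.00897), and by −2.92 without its replicate 1 (adjusted p = 0.00189).

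The *Stag2*-/- siGLO libraries had 75.1, 220 and 54.9 normalized *Cdx1* counts, so that replicate 2 again stood far above the others. The change against wild-type siGLO was 0.95 (SE 0.44, adjusted p = 0.141), and 0.11 without that library (adjusted p = 0.882). With that library kept, it was called without replicate 1 (1.185, adjusted p = 0.0763) or replicate 3 (1.289, adjusted p = 0.05035) of *Stag2*-/- siGLO. From *Stag2*-/- siGLO to *Stag2*-/- siStag1 the *Cdx1* change was −3.11 (SE 0.52, adjusted p = 0.00250), and the 2 conditions did not overlap. It was −2.27 without replicate 2 of *Stag2*-/- siGLO (adjusted p = 0.00838), and it was −4.00 without replicate 1 of *Stag2*-/- siStag1 (adjusted p = 0.000834). When only the 6 libraries of this comparison were fitted, the call was lost (−3.12, adjusted p = 0.116). The siStag1 effect in *Stag2*-/- cells minus that in wild-type cells, which asks whether depleting STAG1 acted differently once STAG2 was lost, was −2.98 for *Cdx1* (SE 0.69), the largest difference among the 8 tested members, and was not called (adjusted p = 0.186). By DESeq2 it was called (−3.00, adjusted p = 0.00553), and so it was by edgeR with the replicate block (−2.89, adjusted p = 0.0519). Over the conditions of this difference 15 of 18 pairs of same-numbered libraries correlated at an r over 0.1 (lowest −0.092). By the rule used below, the numbers thus do not pair these libraries.

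*Cdx2*, which acts in the posterior axis and in trophectoderm, was the only member called in *Stag1*-/- cells. Its normalized counts were 12.2, 7.12 and 13.6 in wild-type siGLO and 30.5, 22.4 and 55.1 in *Stag1*-/- siGLO, with no overlap. The change was 1.71 (SE 0.65, adjusted p = 0.0937). The call was lost without any 1 of the 3 wild-type siGLO libraries (adjusted p = 0.172, 0.264 and 0.145 without replicates 1, 2 and 3) and without replicate 1 (adjusted p = 0.150) or 3 (adjusted p = 0.283) of *Stag1*-/- siGLO. For *Cdx2*, *Stag2*-/- siGLO had 24.3, 22.6 and 2.11 normalized counts, which lay on both sides of the wild-type range, and the change of 0.57 (SE 0.69) was not called (adjusted p = 0.598). *Stag2*-/- siStag1 had 15.8, 4.16 and 2.02, and its change of −0.57 (SE 0.76) was not called (adjusted p = 0.595).

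*Cdx4* was near the limit of detection, with 7.48, 0 and 5.81 normalized counts in wild-type siGLO. *Stag1*-/- siGLO had 12.8, 14.6 and 18.1, all above the control, with a change of 1.73 (SE 0.75) that was not called (adjusted p = 0.142). *Cdx4* was not called in any other comparison.

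**Figure D2:**
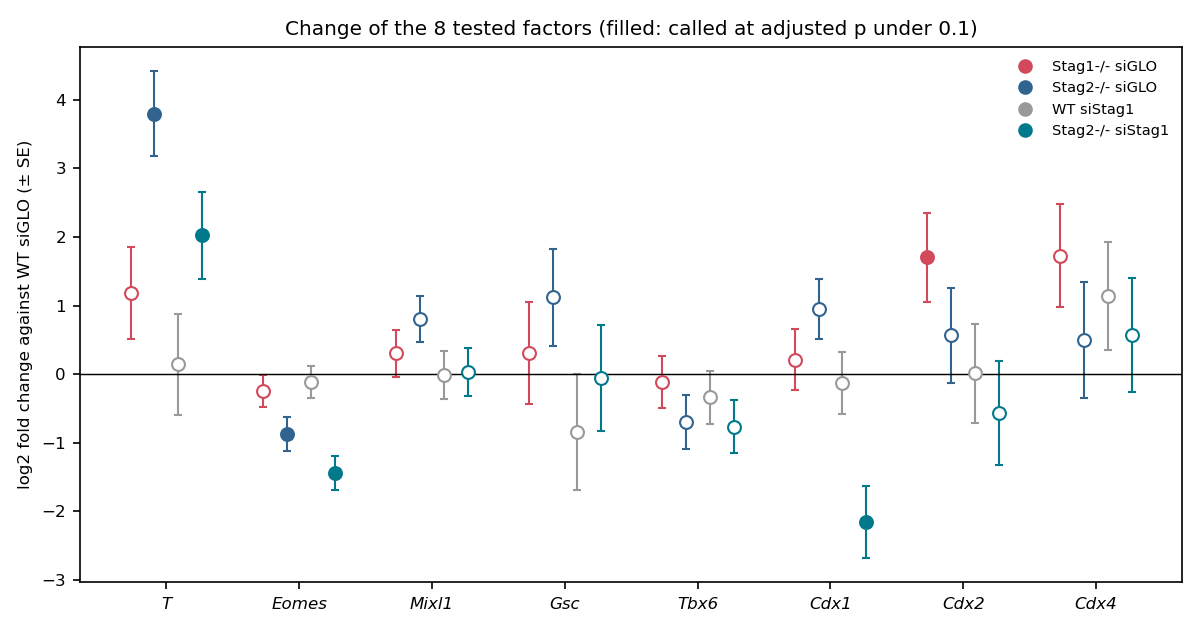
Log2 fold change against wild-type siGLO (y axis, bars are SE) of the 8 tested factors (x axis) in the 4 other conditions, from edgeR with 3 libraries per condition. Filled points were called and open points were not. *T* is called higher and *Eomes* lower in both *Stag2*-/- conditions, *Cdx1* lower in *Stag2*-/- siStag1 alone and *Cdx2* higher in *Stag1*-/- siGLO, with no call in wild-type siStag1.

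Counted together, the factors were called about as often as other genes in most comparisons. In *Stag1*-/- siGLO against wild-type siGLO 1 of 8 was called (*Cdx2* higher), where 20% of all tested genes were. For *Stag2*-/- siGLO it was 2 of 8 (*T* higher, *Eomes* lower), against 28.3% of all genes, and 4 of 8 with the replicate block, against 39.4%. In wild-type siStag1 none was called by edgeR, against 0.248% of all genes (0.103% higher and 0.145% lower), and none had an unadjusted p under 0.05 or was called by DESeq2. Called in *Stag2*-/- siStag1 were 3 of 8 (*T* higher, *Eomes* and *Cdx1* lower), against 43.9% of all genes, and against wild-type siStag1 it was the same 3 of 8, where 37.5% of all genes were called, 19.4% higher and 18.1% lower. Between *Stag2*-/- and *Stag1*-/- siGLO 2 of 8 were called (*T* higher, *Eomes* lower), against 25.7% of all genes, 12.9% higher and 12.7% lower. Between both *Stag2*-/- conditions 2 of 8 were called lower (*T* and *Cdx1*, lower with siStag1), where 6.37% of all genes were called, 2.98% higher and 3.39% lower. For the difference between the siStag1 effects none of 8 was called by edgeR, against 0.159% of all genes (0.0207% higher and 0.138% lower). There was 1 at an unadjusted p under 0.05, 1 called by DESeq2 and 1 called with the replicate block (0.951% of all genes). It was *Cdx1* in each case, and by the rule used the replicate numbers do not pair these libraries.

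The groups did not overlap for 3 of the 8 tested members between *Stag1*-/- siGLO and wild-type siGLO (*T*, *Cdx2* and *Cdx4*), where 31.7% of all tested genes had no overlap. For *Stag2*-/- siGLO it was 2 of 8 (*T* and *Mixl1*), against 35.7% of all genes, for wild-type siStag1 1 of 8 (*Cdx1*), against 15.5%, and for *Stag2*-/- siStag1 4 of 8 (*T*, *Eomes*, *Tbx6* and *Cdx1*), against 47.3%. Between *Stag2*-/- siStag1 and wild-type siStag1 the same 4 did not overlap, against 45.3% of all genes, between both *Stag2*-/- conditions 2 of 8 did not (*Mixl1* and *Cdx1*), against 19.3%, and between the knockouts 1 of 8 did not (*T*), against 31%.

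The median change of the 8 tested members in *Stag2*-/- siGLO against wild-type siGLO was 0.68, with 6 of 8 above 0, beside 0.0070 over all genes. Without replicate 2 of *Stag2*-/- siGLO the change of *Cdx1* went from 0.95 to 0.11 and that of *Cdx4* from 0.49 to −0.49, while *T* stayed higher at 2.66. The median without that library is not given. In *Stag2*-/- siStag1 against wild-type siGLO the median was −0.31, with 3 of 8 above 0, beside 0.0055 over all genes. These comparisons share the wild-type siGLO libraries. Summed over all 10 genes, normalized counts ran from 325 to 449 in wild-type siGLO and from 172 to 220 in *Stag2*-/- siStag1. *Eomes* was the largest part of these sums, with means of 246.5 and 90.6. The mean of *Cdx1* fell from 60.3 to 13.3, while that of *T* rose from 9.10 to 37.3, so that the sums do not describe the factors as a set. The 3 *Stag2*-/- siGLO sums were 333, 787 and 296, with replicate 2 highest.

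The members were highest in different ones of the 3 *Stag2*-/- siGLO libraries. Replicate 2 was the highest of the 3 for *T*, *Eomes*, *Evx1*, *Cdx1* and *Cdx4*, replicate 3 for *Mixl1*, *Gsc*, *Tbx6* and *Mesp1*, and replicate 1 for *Cdx2*. The total of replicate 2 on genes was within the range of the other libraries. As a description over 15 libraries, with the condition means removed, Pearson's r between pairs of the 8 tested members ran from −0.71 (*Tbx6* and *Cdx2*) to 0.87 (*Mixl1* and *Tbx6*). The next highest were 0.82 between *Mixl1* and *Gsc*, 0.75 between *T* and *Cdx2*, 0.71 between *Eomes* and *Cdx1*, 0.70 between *Gsc* and *Tbx6* and 0.68 between *T* and *Cdx1*. All of these points share library depth and, within replicate numbers, possibly handling.

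Signals that induce the streak and their antagonists were compared from a list of 15 genes, of which 14 were tested. Calls in this list and in those that follow are against wild-type siGLO unless another control is named. Called higher in *Stag2*-/- siGLO were 6, with the NODAL antagonist *Lefty1* among them (13.9% of all genes were called higher), and 4 were lower, with the WNT antagonist *Dkk1* among them (14.4%), and without replicate 2, when 20.2% of all genes were called in either direction against 28.3% with it, it was 6 and 2, with *Bmp4* and *Wnt3a* no longer called. *Wnt8a*, a WNT ligand of the streak, had 5.61, 6.10 and 3.87 normalized counts in wild-type siGLO and 42.3, 361 and 33.8 in *Stag2*-/- siGLO, a change of 4.78 (SE 0.86, adjusted p = 0.00123), and of 2.85 without replicate 2 (adjusted p = 0.00340). *Wnt3*, the WNT ligand that initiates the streak, had 13.1, 22.4 and 17.4 in wild-type siGLO and 38.1, 180 and 47.5 in *Stag2*-/- siGLO, a change of 2.32 (SE 0.49, adjusted p = 0.00380), and of 1.28 without replicate 2 (adjusted p = 0.0233). In both genes replicate 2 was the highest, as it was for *T*, and all 3 *Stag2*-/- libraries lay above wild-type. *Fgf8*, a growth factor of the streak, had 38.1, 525 and 339 in *Stag2*-/- siGLO against 13.1, 16.3 and 9.68, a change of 4.52 (SE 0.89, adjusted p = 0.00235), and of 3.85 without replicate 2 (adjusted p = 0.0129).

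In *Stag2*-/- siStag1, against wild-type siGLO, 8 of the 14 genes of this list were called higher (22.6% of all genes) and 3 lower (21.3%). *Fgf8* (3.70, SE 0.89, adjusted p = 0.00417) and *Fgf5*, an epiblast growth factor (3.35, SE 0.38, adjusted p = 7.01e-06), had the largest rises. *Wnt3* (1.57, SE 0.50, adjusted p = 0.0224), *Wnt8a* (2.35, SE 0.93, adjusted p = 0.0593), *Nodal* (0.35, SE 0.12, adjusted p = 0.0400) and the NODAL antagonists *Lefty1* (2.00, SE 0.21, adjusted p = 2.34e-06) and *Lefty2* (0.60, SE 0.24, adjusted p = 0.0602) were also higher. Largest among the falls were those of *Dkk1* (−3.01, SE 0.51, adjusted p = 0.000284) and of *Bmp4*, which induces posterior mesoderm (−1.97, SE 0.30, adjusted p = 0.000115). Against wild-type siStag1, *Wnt3* (0.98, adjusted p = 0.138) and *Wnt8a* (0.59, adjusted p = 0.611) were not called in *Stag2*-/- siStag1. When siStag1 was added to *Stag2*-/- cells, none of the 14 was called higher by edgeR without the block or by DESeq2, and 4 were called lower, *Wnt8a*, *Bmp4*, *Fgf4* and *Dkk1* (3.39% of all genes), with 5 at an unadjusted p under 0.05. With the replicate block edgeR called *Lefty1* higher and the same 4 lower (14.1% of all genes in either direction), and without replicate 2 of *Stag2*-/- siGLO 1 was lower, *Fgf4* (4.62%). *Wnt8a* fell there by 2.43 (SE 0.71, adjusted p = 0.0671), and by 0.50 without that library, which was not called (adjusted p = 0.658). In *Stag1*-/- siGLO, with *Wnt3a* left aside, 4 of 13 were called higher (10.1% of all genes) and 2 were lower (9.93%), with *Dkk1* at −2.98 (SE 0.51, adjusted p = 0.000883). *Bmp4* rose there by 0.92 (SE 0.27, adjusted p = 0.0338) and *Lefty2* by 1.05 (SE 0.24, adjusted p = 0.00728). *Wnt3a*, a WNT ligand of the later streak and tail bud, had 18.7 ± 2.84 normalized counts (SD, n = 3) in *Stag1*-/- siGLO against 6.77 ± 1.47 in wild-type siGLO, and since it reached 10 raw counts in the *Stag1*-/- siGLO libraries alone, it entered the test through the group in which it was high and its test there is not given. For *Bmp4*, *Stag2*-/- siGLO had a change of −0.92 (SE 0.29, adjusted p = 0.0326), and −0.85 without replicate 2, which was not called (adjusted p = 0.105). For *Wnt3a* it had a change of −1.62 (SE 0.63, adjusted p = 0.0791), and −1.07 without replicate 2, which was not called (adjusted p = 0.229). In the direct comparison of the 2 knockouts *Bmp4* was lower in *Stag2*-/- cells, with a change of −1.84 (adjusted p = 0.000382).

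A list of 11 direct targets of WNT and beta-catenin signalling held *T* and *Cdx1* themselves, and 10 of its genes were tested. For *Stag2*-/- siGLO 6 were called higher (13.9% of all genes) and none lower (14.4%), with a median change of 0.62, and without replicate 2, when 20.2% of all genes were called, 5 were higher. For *Stag2*-/- siStag1 4 were called higher (22.6% of all genes) and 1 lower, *Cdx1* (21.3%), with a median of 0.16. In *Stag1*-/- siGLO none was called by edgeR or by DESeq2, and 0 had an unadjusted p under 0.05, against 20% of all genes called. *Lef1*, a transcription factor of the pathway, rose by 2.19 (SE 0.27, adjusted p = 5.11e-05) in *Stag2*-/- siGLO and by 3.49 (SE 0.28, adjusted p = 1.85e-07) in *Stag2*-/- siStag1. *Sp5*, a transcription factor induced by WNT, was also highest in replicate 2 of *Stag2*-/- siGLO, at 56.1, 226 and 67.6 normalized counts against 24.3, 20.3 and 22.3 in wild-type siGLO. Its change was 2.38 (SE 0.53, adjusted p = 0.00507), and 1.46 without replicate 2 (adjusted p = 0.0466). In *Stag2*-/- siStag1 it was at 31.5, 20.8 and 4.05, a change of −2.62 (SE 0.54, adjusted p = 0.0113) from *Stag2*-/- siGLO, and of −1.71 without that library (adjusted p = 0.0695). *Axin2*, a feedback inhibitor of the pathway, changed by 0.48 (SE 0.17, adjusted p = 0.0539) in *Stag2*-/- siGLO, a call that was lost without replicate 2 (0.26, adjusted p = 0.292), and by 0.069 (SE 0.17, adjusted p = 0.779, not called) in *Stag2*-/- siStag1.

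**Figure D3:**
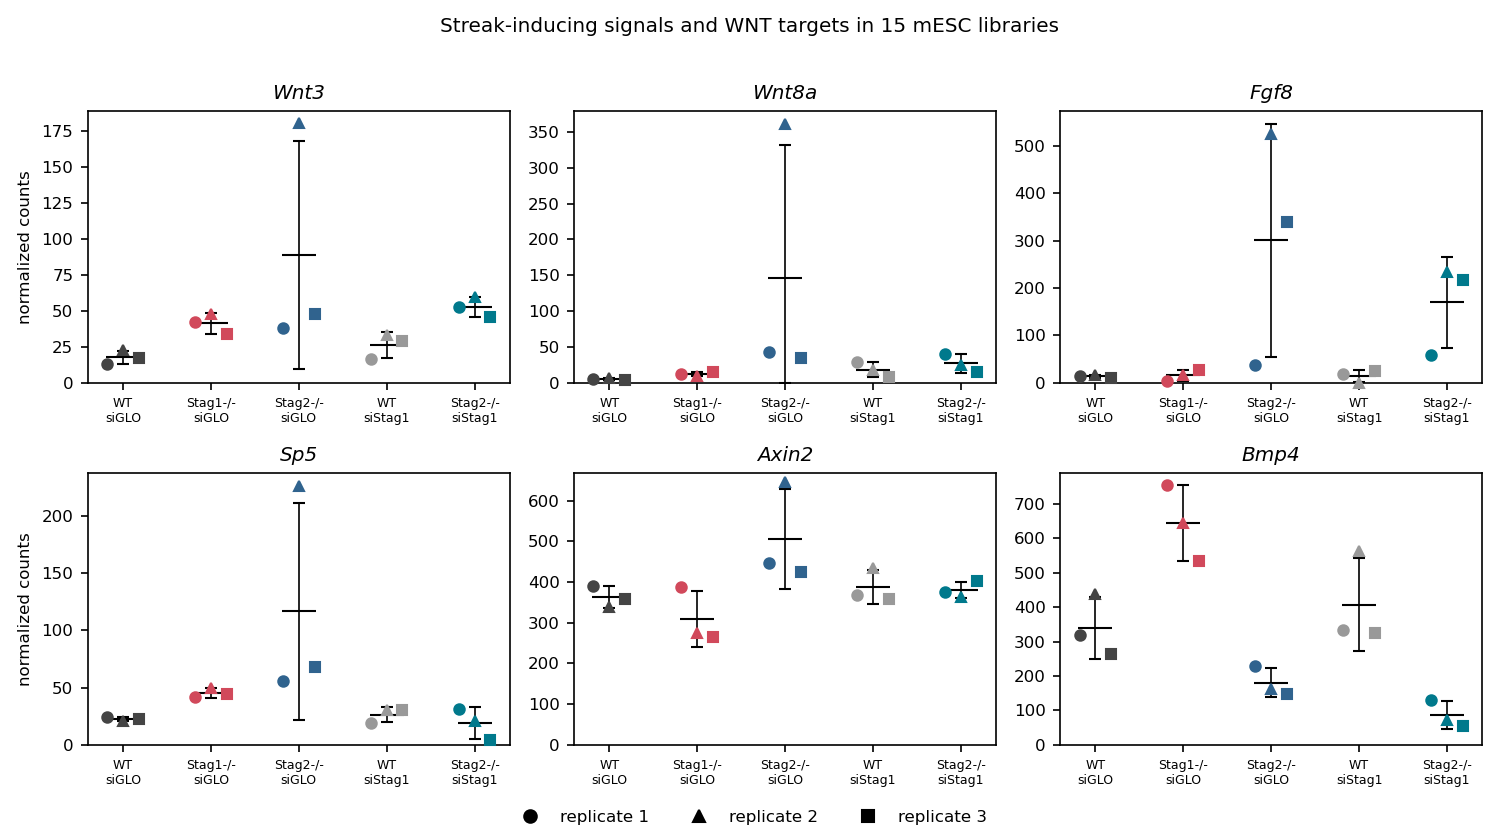
Normalized counts (y axis, scaled to a common depth, 1 scale per panel) of 4 streak-inducing signals, *Wnt3*, *Wnt8a*, *Fgf8* and *Bmp4*, and of the WNT targets *Sp5* and *Axin2* in the 15 libraries by condition (x axis). Points are libraries, shapes give the replicate number, and lines and bars are means and SDs of 3 libraries, cut off at 0. Replicate 2 of *Stag2*-/- siGLO is the highest library for *Wnt3* (180), *Wnt8a* (361), *Fgf8* (525), *Sp5* (226) and *Axin2* (647), and *Bmp4* is lowest in *Stag2*-/- siStag1.

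Genes that act after these factors moved in both directions. Of 14 Hox genes regulated by CDX factors 6 were tested, and 3 were called higher in *Stag2*-/- siGLO (13.9% of all genes) and 4 in *Stag2*-/- siStag1 (22.6%), with none lower (14.4% and 21.3%). *Hoxb1* and *Hoxa5* reached 10 raw counts in *Stag2*-/- libraries alone and *Hoxb4* in 1 library besides, so that they entered the test through the groups in which they were high, and the counts are a description. *Hoxb1*, an anterior Hox gene of the posterior streak, had 0.935, 0 and 0 normalized counts in wild-type siGLO and 31.5, 18.7 and 28.3 in *Stag2*-/- siStag1. *Hoxb4* had 6.55, 6.10 and 7.74 in wild-type siGLO and 55.2, 23.9 and 38.4 in *Stag2*-/- siStag1, the condition in which *Cdx1* was lowest. Among genes of paraxial mesoderm and axial progenitors, 9 of 12 were tested, and 2 were called higher and 3 lower in *Stag2*-/- siStag1, beside 22.6% and 21.3% of all genes. The NOTCH ligand *Dll1* rose by 1.22 (SE 0.34, adjusted p = 0.00973) and *Lfng*, which modulates NOTCH, by 0.91 (SE 0.25, adjusted p = 0.00935). The somite gene *Meox1* reached 10 raw counts in wild-type and *Stag1*-/- siGLO libraries alone, and its mean was 10.7 normalized counts in wild-type siGLO and 1.35 in *Stag2*-/- siStag1. It thus entered the test through groups in which it was high, and the count of genes called lower in this list is a description. The growth factor *Fgf17* changed by −1.19 (SE 0.17, adjusted p = 4.46e-05).

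Genes of lateral plate, cardiac and extraembryonic mesoderm were called in 1 direction in the *Stag2*-/- conditions, with none higher and 5 of 11 lower in *Stag2*-/- siGLO (14.4% of all genes) and 6 of 11 lower in *Stag2*-/- siStag1 (21.3%). *Gata4*, a cardiac and endoderm factor, changed by −2.21 (SE 0.18, adjusted p = 2.03e-07) in *Stag2*-/- siStag1, and *Kdr*, the VEGF receptor of blood and vessel precursors, by −2.05 (SE 0.49, adjusted p = 0.00388). Of 8 tested genes of the anterior streak, node and definitive endoderm, 6 were called lower (21.3% of all genes) and 2 higher (22.6%) in *Stag2*-/- siStag1, and 4 lower (14.4%) and 1 higher (13.9%) in *Stag2*-/- siGLO. *Sox17* and *Gata6* were lower in all 3 knockout conditions, at −4.10 and −3.45 in *Stag1*-/- siGLO, −2.72 and −2.30 in *Stag2*-/- siGLO and −2.95 and −2.58 in *Stag2*-/- siStag1 (the highest adjusted p of these 6 was 0.000280). The 2 that rose in *Stag2*-/- siStag1 were *Otx2*, an anterior and epiblast factor (0.98, SE 0.18, adjusted p = 0.000653), and the BMP antagonist *Chrd* (0.68, SE 0.30, adjusted p = 0.0846). Of the genes called lower in these 2 lists, *Foxa2*, *Sox17* and *Gata6* in the anterior streak list and *Gata4* and *Pdgfra* in the lateral plate list are also among the primitive endoderm markers.

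Markers of other cell types moved in the same libraries. All 10 markers of primitive endoderm were called lower in *Stag1*-/- siGLO, *Stag2*-/- siGLO and *Stag2*-/- siStag1 (9.93%, 14.4% and 21.3% of all genes), with summed normalized counts of 37140 to 38280 in wild-type siGLO and 5483 to 9566 in those 9 libraries. In bulk RNA, fewer cells of a type and less RNA per cell cannot be told apart. Of 12 trophoblast markers, a list that holds *Eomes* and *Cdx2*, 10 were tested. In *Stag1*-/- siGLO 4 were called higher (10.1% of all genes) and 1 lower (9.93%), and the sum was 4208 to 5944 against 2742 to 3438 in wild-type siGLO. In *Stag2*-/- siGLO and in *Stag2*-/- siStag1 6 were called lower (14.4% and 21.3% of all genes) and none higher, with sums of 1638 to 2084 and of 1101 to 1334. Without replicate 2 of *Stag2*-/- siGLO 4 of 11 tested were lower there, when 20.2% of all genes were called in either direction. The largest falls of this list in *Stag2*-/- siStag1 were those of the trophoblast factors *Tead4* (−2.49, SE 0.15, adjusted p = 8.11e-09) and *Esx1* (−2.45, SE 0.31, adjusted p = 1.77e-05). No defining trophoblast or primitive endoderm marker of these lists was at 0 throughout a condition. Of 10 stem cell markers 9 were called lower (21.3% of all genes) and none higher in *Stag2*-/- siStag1, with sums of 29890 to 32990 against 70130 to 76530 in wild-type siGLO. In *Stag2*-/- siGLO, where *T* was highest, 6 stem cell markers were called lower (14.4% of all genes) and 1 higher (13.9%), with sums of 51970 to 57000, and in *Stag1*-/- siGLO 4 lower (9.93%) and 1 higher (10.1%). *Tfcp2l1* (−3.46, SE 0.15) and *Tbx3* (−3.17, SE 0.14), factors of the naive state, fell most in *Stag2*-/- siStag1, each at an adjusted p = 7.30e-10. Of 9 tested neuroectoderm markers 6 were called higher in *Stag2*-/- siGLO (13.9% of all genes), with none lower, and without replicate 2 it was 4 of 10 tested, when 20.2% of all genes were called in either direction. In *Stag1*-/- siGLO 2 were lower (9.93%). For *Stag2*-/- siStag1 5 were called higher (22.6% of all genes) and none lower, among them *Pax6* (3.48, SE 0.33, adjusted p = 8.68e-07). *Olig3* and *Pax3* of this list reached 10 raw counts in *Stag2*-/- libraries alone, so that they entered the test through the groups in which they were high, and the counts of this list in the *Stag2*-/- conditions are a description. The sum of 10 fibroblast markers, 470 to 783 in wild-type siGLO, was 719 to 867 in *Stag2*-/- siStag1, with *Dcn* and *Lum* at 0 in wild-type siGLO and *Postn* at 0 in *Stag2*-/- siStag1. Of 6 tested, 2 were called higher in *Stag2*-/- siStag1 (22.6% of all genes), *Col3a1* (1.98, SE 0.85, adjusted p = 0.0807) and *Fbn1* (1.35, SE 0.23, adjusted p = 0.000252). The part that these cell type markers had in the changes of *T*, *Eomes*, *Cdx1* and *Cdx2* was not tested.

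**Figure D4:**
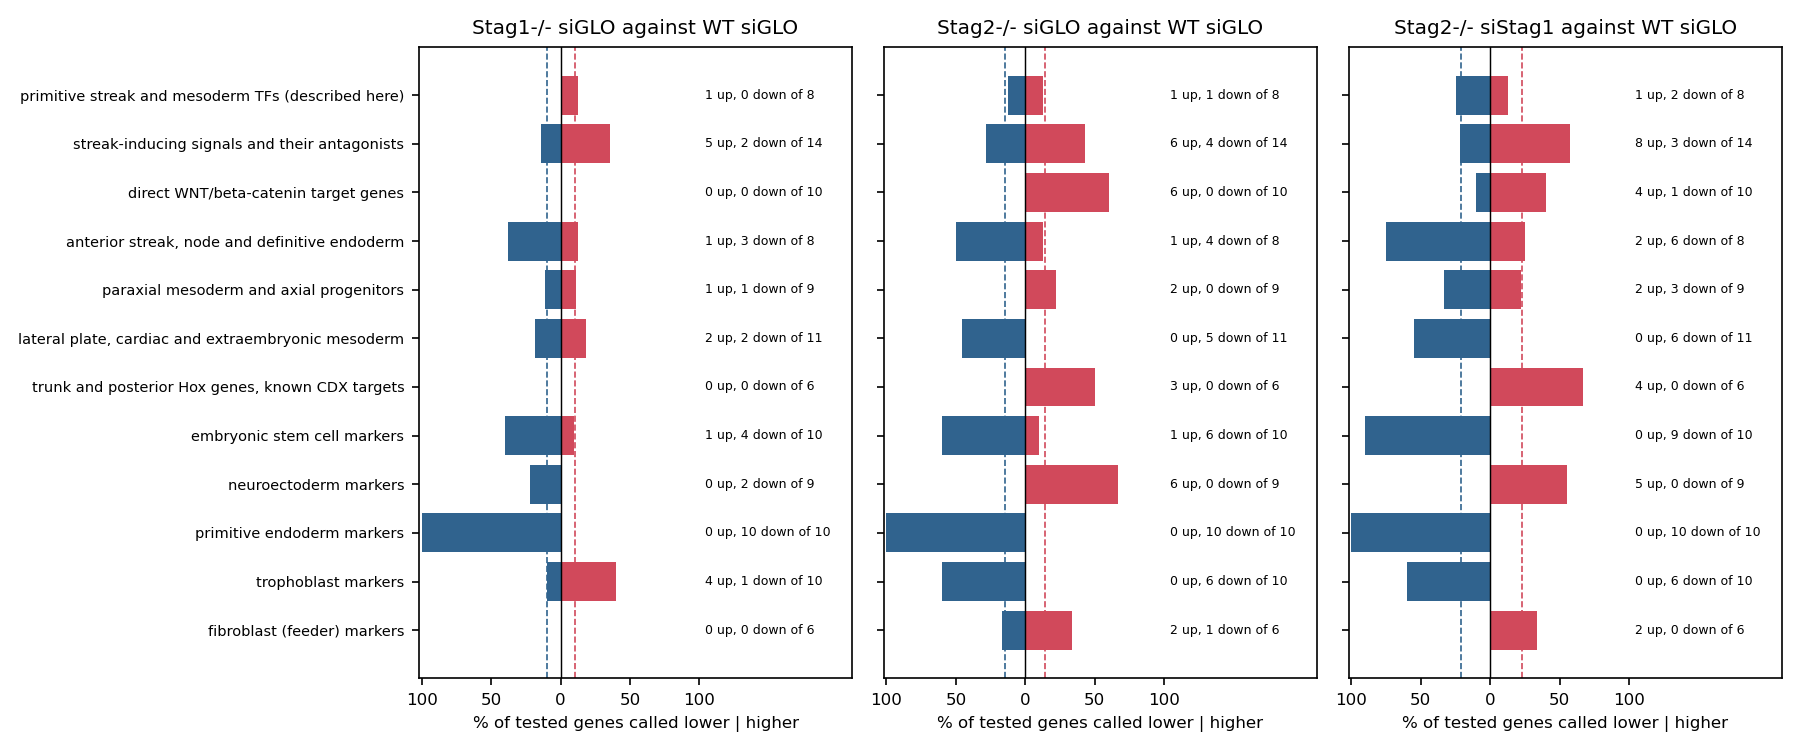
Percent of the tested genes of each list (y axis) called higher (to the right of 0) or lower (to the left) against wild-type siGLO in 3 conditions, with the numbers at the right of each panel and dashed lines at the percent of all 14508 tested genes called in that direction. All 10 primitive endoderm markers are lower in each panel, and WNT targets and Hox genes are not called in the *Stag1*-/- panel and are called higher in the *Stag2*-/- panels, with 1 WNT target lower in *Stag2*-/- siStag1. *Hoxb1*, *Hoxa5* and *Hoxb4*, and *Olig3* and *Pax3* of the neuroectoderm list, entered the test through *Stag2*-/- libraries in which they were high. *Meox1* of the paraxial list entered through wild-type and *Stag1*-/- siGLO libraries, and *Wnt3a* of the signal list through *Stag1*-/- siGLO. The Hox, neuroectoderm and paraxial bars, and the signal bar of the *Stag1*-/- panel, are thus a description.

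The genes with the pattern most like each tested member over the 15 libraries were found by Pearson's r of TMM-normalized log2 CPM, among genes with a mean of at least 20 normalized counts. For *T* these were *Wnt8a* (r = 0.901), *Mrps18c* (0.882) and *Trh* (0.864), and with the condition means removed r was 0.882, 0.427 and 0.206. *Eomes* was most like *Tmbim1* (0.939), *Tbc1d10b* (0.939) and *Bag1* (0.933), *Cdx1* like *Ubd* (0.922), *Bcat1* (0.906) and *Sh2d4b* (0.891), and *Cdx2* like *Phf10* (0.863) and *Pdgfc* (0.857). *Tbx6* was most like *Hr* (0.913), *Tmem50b* (0.908) and *St6galnac3* (0.892), *Mixl1* like *Shisa3* (0.839), *Tmem251* (0.837) and *Zbtb49* (0.820), *Gsc* like *Arhgef10l* (0.868), *Mamdc4* (0.823) and *Zfyve19* (0.820), and *Cdx4* like *Cd82* (0.771), *Emc3* (0.764) and *Nespas* (0.739). Only 4 of the members, *T*, *Eomes*, *Tbx6* and *Cdx1*, had a mean high enough to be found in this search. *Mixl1* and *Gsc* were not, and r between them was 0.822, above that of the third gene of each. These are the highest of 12867 or 12868 values per member, and points share condition and depth.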

How the data were processed

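PolyA RNA-seq was performed by the study on 15 mESC libraries, 3 for each of 5 conditions, with groups and replicate numbers taken from the sample labels. Paired-end reads of 150 bp were mapped to mm10 by the authors using STAR, and the raw counts per gene that the authors deposited, not normalized, were used unchanged. The annotation and strand setting are not given in the sources used here. The 4 summary lines of each deposited table (N_unmapped, N_multimapping, N_noFeature and N_ambiguous) were left out of library sizes and tests. Per library they held 875042 to 1116743, 856645 to 1070944, 2132981 to 2989457 and 379446 to 499487 reads, beside 14982560 to 19070126 on genes. Of 23412 genes, 19494 had a count and 14508 were tested.

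The test was edgeR 4.0.16 (R 4.3.3) on all 15 libraries. Low genes were removed with filterByExpr grouped on condition (count 10, total 15), libraries were scaled by TMM, and contrasts between condition coefficients were taken two-sided from glmQLFit and glmQLFTest. Adjustment was by Benjamini-Hochberg across every tested gene, at a threshold of 0.1. The SE is the log2 fold change divided by the square root of F. Normalized counts are counts over TMM-scaled library sizes, brought to 17409359. A check of the test on simulated data was made, and its outcome is not given here. All 10 members are named, with *Stag1* and *Stag2*, 9 signal and WNT target genes fixed by name, and up to 2 of the largest rises and falls per list in *Stag2*-/- siStag1 against wild-type siGLO. *Pou5f1*, *Nanog*, *Lefty1*, *Fgf4*, *Foxa2*, *Pdgfra*, *Pax3* and the marker genes listed at 0 were named after their values were seen. Of the genes most like each member, 1 is not reported here. The members, lists and tests were chosen with earlier results of these data known.

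Replicate numbers come from the labels. With condition means removed, same-numbered libraries correlated at a mean r of 0.311 across 11530 genes (30 pairs, 27 over 0.1), against −0.152 for 60 other pairs. Deviations within a condition cancel, so that the value for other pairs largely follows from that for same-numbered pairs and is no separate check. Every same-numbered pair was over 0.1 in each comparison between siGLO conditions, between both wild-type conditions and between both *Stag2*-/- conditions, and the replicate block is given there where it changes a call. It is also given for the difference of siStag1 effects and for *Stag2*-/- siStag1 against wild-type siGLO, where not every such pair was over 0.1. No library was a copy of another from its condition (chi-square over degrees of freedom 4.52 to 25.2). Alternatives were DESeq2 1.42.0, other scalings and filters, only the libraries compared, a threshold of 0.05, the replicate number as a block and omission of single libraries. Calls of the lists and of their genes without replicate 2 of *Stag2*-/- siGLO and with the block were added after seeing the data. Promoter windows are from RefSeq (GRCm38.p6), gene positions and exon lengths from GENCODE M21. Python 3.11.15 with matplotlib 3.10.9 drew the figures.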

Additional observations from a re-analysis of the deposited data

How the results depend on the processing

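Precision was limited by depth for the low members, since 3 counts stand for 0.157 to 0.200 CPM, and by 3 libraries per condition from single clones. Of 173 alternative values of called members, 153 kept direction and call, 20 kept direction and lost the call, and none changed sign. Of 715 values of members not called, 666 kept direction and side, 18 became called and 31 changed sign, all 31 when a library was left out.

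The number of members called moved as follows, and the cause was not tested except where stated. With at least 10 counts in every library, which leaves only *Eomes* and *Mixl1* of the members in the test, it was 0 in *Stag1*-/- siGLO against wild-type siGLO, 1 in *Stag2*-/- siStag1 against wild-type siGLO and against wild-type siStag1, 1 in *Stag2*-/- against *Stag1*-/- siGLO and 0 in *Stag2*-/- siStag1 against *Stag2*-/- siGLO, with 20.3%, 44.2%, 38.4%, 26.1% and 6.78% of all genes called in the same order. With only the libraries compared it was 3, 1 and 0 in *Stag1*-/- siGLO against wild-type siGLO, *Stag2*-/- against *Stag1*-/- siGLO and *Stag2*-/- siStag1 against *Stag2*-/- siGLO, beside 20.5%, 17.5% and 1.61% of all genes, and the 3 held *Cdx4*, which among those 6 libraries reached 10 counts in *Stag1*-/- siGLO alone. At an adjusted p under 0.05 it was 0, 1 and 1 in the same comparisons, beside 14.1%, 18.1% and 3.78%. For the difference of siStag1 effects it was 1 (*Cdx1*) with DESeq2, without an expression filter and with the replicate block (adjusted p = 0.0519), beside 0.718%, 0.174% and 0.951%. By DESeq2 it was 3 in *Stag2*-/- siGLO against wild-type siGLO, the third being *Evx1*, which edgeR did not test (26.6% of all genes). With the replicate block it was 4 in *Stag2*-/- siGLO against wild-type siGLO, where the numbers pair the libraries (39.4%). Where they do not by the rule used (lowest r 0.0468), the block brought *Tbx6* to a call in *Stag2*-/- siStag1 against wild-type siGLO (−0.77, adjusted p = 0.0692). The same limit holds for the block call of *Cdx1* in the difference of siStag1 effects (lowest r −0.092). The block changed no other call of a member.

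When single libraries were left out, the number called ran from 0 to 1 in *Stag1*-/- siGLO (13% to 18.7% of all genes), 2 to 4 in *Stag2*-/- siGLO (17.1% to 27.1%), 0 to 0 in wild-type siStag1 (0.00679% to 0.102%) and 3 to 3 in *Stag2*-/- siStag1 (35.1% to 42.3%), each against wild-type siGLO. It ran from 1 to 3 in *Stag2*-/- against *Stag1*-/- siGLO (17.2% to 23.9%), 1 to 2 in *Stag2*-/- siStag1 against *Stag2*-/- siGLO (2.83% to 10.1%), 2 to 3 against wild-type siStag1 (28.8% to 36.2%) and 0 to 1 for the difference of siStag1 effects (0.0882% to 0.517%). Log2 fold changes that changed sign ran, against wild-type siGLO, from −0.046 to 0.13 (*Mixl1*), −0.52 to 0.47 (*Gsc*) and −0.34 to 1.15 (*Cdx4*) in *Stag2*-/- siStag1, from −0.49 to 1.08 (*Cdx4*) in *Stag2*-/- siGLO, from −0.21 to 0.044 (*Tbx6*) and −0.34 to 0.77 (*Gsc*) in *Stag1*-/- siGLO, and from −0.35 to 0.32 (*Cdx2*), −0.097 to 0.31 (*T*), −0.28 to 0.040 (*Eomes*) and −0.096 to 0.090 (*Mixl1*) in wild-type siStag1. They ran from −0.79 to 0.56 (*Gsc*) and −0.095 to 0.92 (*Tbx6*) for the difference of siStag1 effects, from −0.067 to 0.14 (*Mixl1*) in *Stag2*-/- siStag1 against wild-type siStag1, from −0.84 to 1.06 (*Cdx4*) and −0.43 to 0.58 (*Tbx6*) against *Stag2*-/- siGLO, and from −0.10 to 1.08 (*Cdx1*) in *Stag2*-/- against *Stag1*-/- siGLO.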
